A study of Macaca mulatta with 102 samples.

Results

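SOCS1, SOCS2, SOCS3, CISH, PIM1, PIM3, LIF and OSM are genes of cytokine signalling through JAK kinases and STAT factors, and their RNA levels in macaque T cells are described here. Their members on the array were all probe sets (sets of short probes for a transcript) that the platform annotation pairs with 1 of these genes alone, which gave 14 of 52865 probe sets, for 8 of the 14132 genes with such a probe set. SOCS1 had 5 probe sets, CISH and OSM had 2 each, and the other genes had 1 each. All 14 passed the filter on low values. Each gene is described by its probe set with the highest mean over all arrays, and the other probe sets are given where they differ. The genes were chosen by measured values: SOCS2 in KY1005.F and in the 3 KY1005.Siro groups, and SOCS3 in KY1005.Siro.D28, were already known to be high. Comparisons of those groups with Healthy.Control or other regimens are therefore given as differences with no test.

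T cells carrying CD3 were sorted by flow cytometry from the blood of rhesus macaques (Macaca mulatta), and 102 arrays were hybridised, 56 after haematopoietic cell transplantation and 46 from untransplanted animals. The groups after transplantation were NoRx.F (4 arrays, days 6 to 12, no prophylaxis), Siro.F (4, days 12 to 24, sirolimus, an inhibitor of mTOR), Tac.Mtx.D14 and Tac.Mtx.F (3 each, day 14 and days 26 to 67, tacrolimus, a calcineurin inhibitor, with methotrexate), and the belatacept and sirolimus groups Bela.Siro.D14 (3 arrays, day 14), Bela.Siro.D30 (2, day 30) and Bela.Siro.F (7, days 26 to 105), where belatacept blocks costimulation through CD28. KY1005, an antibody against the OX40 ligand, was given alone in KY1005.D14 (2 arrays, days 14 to 16) and KY1005.F (3, days 16 to 23), and with sirolimus in KY1005.Siro.D14, KY1005.Siro.D28 and KY1005.Siro.F (5, 5 and 4, day 14, day 28 and days 97 to 106). Recipients of their own cells formed Auto.D14, Auto.D36 and Auto.D100 (3, 4 and 4, day 14, days 30 to 36 and day 100). Healthy.Control held 46 arrays of 45 animals, and both arrays of R.201 were averaged. The labels give neither conditioning, donor match nor drug dose, and do not explain the letter F. The 102 arrays came from 66 animals, so several animals appear in more than 1 group.

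Cytokine receptors without a kinase of their own use JAK kinases, which phosphorylate STAT factors. Interleukins that signal through the common gamma chain act in T cells mainly through STAT5, and cytokines of the gp130 family act mainly through STAT3. SOCS proteins are made in response and shut the signal down, as a feedback loop: CISH and SOCS2 are known as targets of STAT5, SOCS3 of STAT3, and SOCS1 of interferon signals. PIM kinases are also induced by STAT factors and promote survival and growth, while LIF and OSM are secreted ligands of receptors that contain gp130.

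The values are log2 signals, and a difference of 1 is a doubling. Array medians ran from 5.13 to 5.35. Differences are given as group minus Healthy.Control, adjusted for the 6 labelled batches, with the standard error (SE) of the fit over all 101 arrays, and a gene is said to rise or fall where limma's Benjamini-Hochberg adjusted p over 31711 probe sets was under 0.05. Of the T cell markers CD5, CD6, TRAT1 and CD28 were measured (4 of 8 listed), and their mean lay between 8.56 and 9.68 in healthy arrays. CD3D, CD3G, CD2 and LCK have no tested probe set here. The mean of 9 of 12 listed myeloid markers ran from 4.92 to 8.11 in healthy arrays, and arrays of 10 groups lay above that range: 2 of 4 in NoRx.F (range 6.03 to 9.24), 1 of 3 in Tac.Mtx.D14 (7.33 to 8.44), 2 of 3 in Bela.Siro.D14 (6.79 to 9.58), 1 of 2 in Bela.Siro.D30 (6.09 to 8.61) and 3 of 7 in Bela.Siro.F (7.02 to 9.65). The others were 1 of 3 in KY1005.F (6.61 to 9.67), 3 of 5 in KY1005.Siro.D14 (7.64 to 8.99), 3 of 4 in KY1005.Siro.F (5.48 to 11.4), 1 of 3 in Auto.D14 (6.92 to 8.36) and 1 of 4 in Auto.D36 (5.91 to 10.1). With this score as a covariate, 37 of the 41 differences named here kept their direction and side of the threshold or, with no test, moved less than the healthy SD. The exceptions were SOCS1 in Auto.D14, SOCS3 in Tac.Mtx.F, PIM3 in Bela.Siro.D14 and OSM in KY1005.Siro.F. The log2 ratio of the actin 3′ to 5′ probe sets, a sign of RNA degradation, exceeded 2.5 in 6 arrays, 2 of Auto.D14 and 4 of Healthy.Control. In bulk T cells, fewer cells of a type and less RNA per cell cannot be told apart.

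Over 11 groups compared with Healthy.Control, 21 of 88 gene and group pairs passed, 19 higher and 2 lower. When all probe sets of a gene were averaged, 22 passed and all 22 were higher, so neither lower call was kept. The higher calls were concentrated in the belatacept and sirolimus groups. In Bela.Siro.F 6 of the 8 genes were higher, where 5.23% of all probe sets were called higher and 10% in either direction. In Bela.Siro.D14 4 of 8 were higher, against 1.64% of all probe sets (2.68% in either direction), and in Bela.Siro.D30 4 of 8, against 0.782% (1.14%). In Siro.F 3 of 8 were higher, against 4.24% of all probe sets (8.91%). Tac.Mtx.F had 1 higher gene (6.9% of all probe sets higher, 14.3% in either direction) and KY1005.D14 had 1 higher (0.123% and 0.202%). NoRx.F had 1 lower gene (14% of all probe sets lower, 27.5% in either direction) and Auto.D14 had 1 lower (11% and 19.4%). Single calls in NoRx.F, Tac.Mtx.F and Auto.D14 are thus near the share of all probe sets. Tac.Mtx.D14, Auto.D36 and Auto.D100 had 0 by limma, where 0.88%, 9.26% and 2.48% of probe sets were called in either direction and 5, 0 and 0 of the 8 genes had an unadjusted p under 0.05. Over the 11 groups, the median difference of the 8 genes was highest in Bela.Siro.D30, at 1.15, where the median of all probe sets was 0.00, and lowest in NoRx.F, at -0.09, where that of all probe sets was 0.01.

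**Figure D1:**
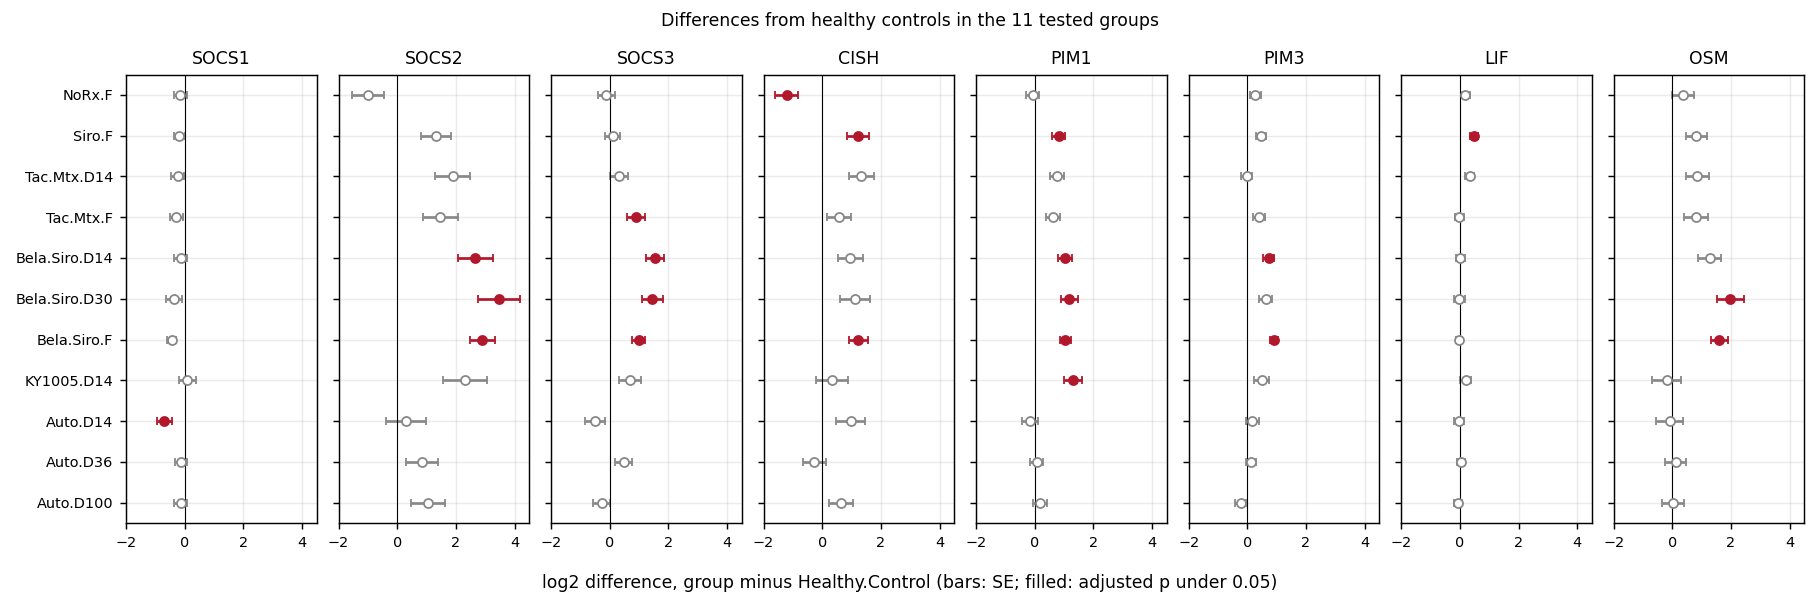
Difference in log2 signal from Healthy.Control (x axis) in the 11 groups that were tested (y axis), 1 panel a gene. Points are fitted differences, bars are SE, and filled points have an adjusted p under 0.05. The filled points of SOCS2, SOCS3, PIM1, PIM3 and OSM lie mostly in the Bela.Siro groups, while LIF has 1 filled point, in Siro.F.

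SOCS2 is a feedback inhibitor best known for limiting growth hormone and STAT5 signals, and it had the widest range of group means of the 8 genes. In Bela.Siro.F its lowest, median and highest arrays were 8.88, 9.32 and 9.79, against 4.15, 6.43 and 8.49 in Healthy.Control. All 7 arrays lay above the highest of 45 healthy animals. SOCS2 rose by 2.91 ± 0.43 (adjusted p = 7.13e-07). In Bela.Siro.D14 it was 8.94 in R.38, 9.51 in R.42 and 8.70 in R.49, again above all healthy arrays, and it rose by 2.66 ± 0.59 (adjusted p = 0.00538). In Bela.Siro.D30 it was 10.14 in R.38 and 9.59 in R.42, and it rose by 3.47 ± 0.70 (adjusted p = 0.0016). The 3 animals of the earlier groups were sampled again in Bela.Siro.F, so the 3 differences are not from separate animals. With R.42 left out of Bela.Siro.D14 the difference was 2.43 (adjusted p = 0.109), and with either array left out of Bela.Siro.D30 it was 3.20 (adjusted p = 0.0923) or 3.74 (adjusted p = 0.074). A group reduced to 1 array is assumed to vary like the others.

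The remaining 8 groups of this comparison did not pass for SOCS2, although several lay well above the healthy mean. In Tac.Mtx.D14 it was 7.96, 8.24 and 8.65, and all 3 arrays lay above the healthy median (difference 1.89 ± 0.59, adjusted p = 0.105). In Tac.Mtx.F the difference was 1.47 ± 0.59, in Siro.F 1.33 ± 0.52 and in KY1005.D14 2.32 ± 0.74, with adjusted p of 0.0826, 0.0995 and 0.151. NoRx.F had the lowest mean of the 16 groups: SOCS2 was 7.16 in R.53, 5.41 in R.50, 5.03 in R.51 and 4.66 in R.52. The last 2 values lie under 5.21, the median of all values on the arrays, where array signal responds little to RNA amount. The NoRx.F difference was -1.01 ± 0.55 (adjusted p = 0.172) and the groups overlapped. In the Auto groups the difference was 0.29 ± 0.68 at day 14, 0.85 ± 0.54 in Auto.D36 and 1.05 ± 0.57 at day 100, and none passed.

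In KY1005 recipients SOCS2 is given as a description. Against 4.15 to 8.49 in Healthy.Control, KY1005.F arrays were 7.75 in R.211, 8.86 in R.206 and 9.88 in R.212, and KY1005.Siro.D14 arrays were 10.05, 9.42, 8.60, 9.83 and 6.96 in R.217 to R.221. KY1005.Siro.D28 arrays were 8.99, 10.56, 9.65, 9.04 and 9.33 in the same order, and KY1005.Siro.F arrays were 9.59 in R.217, 9.27 in R.219, 9.87 in R.220 and 10.97 in R.221. Every array of KY1005.Siro.D28 and KY1005.Siro.F lay above all healthy arrays, while R.211 of KY1005.F and R.221 at day 14 lay within their range. The differences from healthy were 2.72 ± 0.64, 2.86 ± 0.54, 3.40 ± 0.54 and 3.81 ± 0.58 in the 4 groups, in which 3.28%, 4.15%, 12.1% and 6.84% of probe sets were called in either direction. Set against Bela.Siro.D14, KY1005.Siro.D14 differed by 0.20 ± 0.80 (0.0631% of probe sets called), and set against Auto.D14 it stood higher by 2.58 ± 0.87 (8.88% called). KY1005.Siro.D28 stood 2.55 ± 0.76 above Auto.D36 (7.98% called), and KY1005.Siro.F 2.76 ± 0.81 above Auto.D100 (7.18% called). Against NoRx.F the differences were 3.73 ± 0.84 for KY1005.F (8.74% called) and 3.87 ± 0.77 for KY1005.Siro.D14 (15.6% called), and KY1005.F stood 1.39 ± 0.82 above Siro.F (0.00946% called). All KY1005 arrays were in 1 batch, with 7 healthy arrays, so a comparison with another regimen crosses batches.

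**Figure D2:**
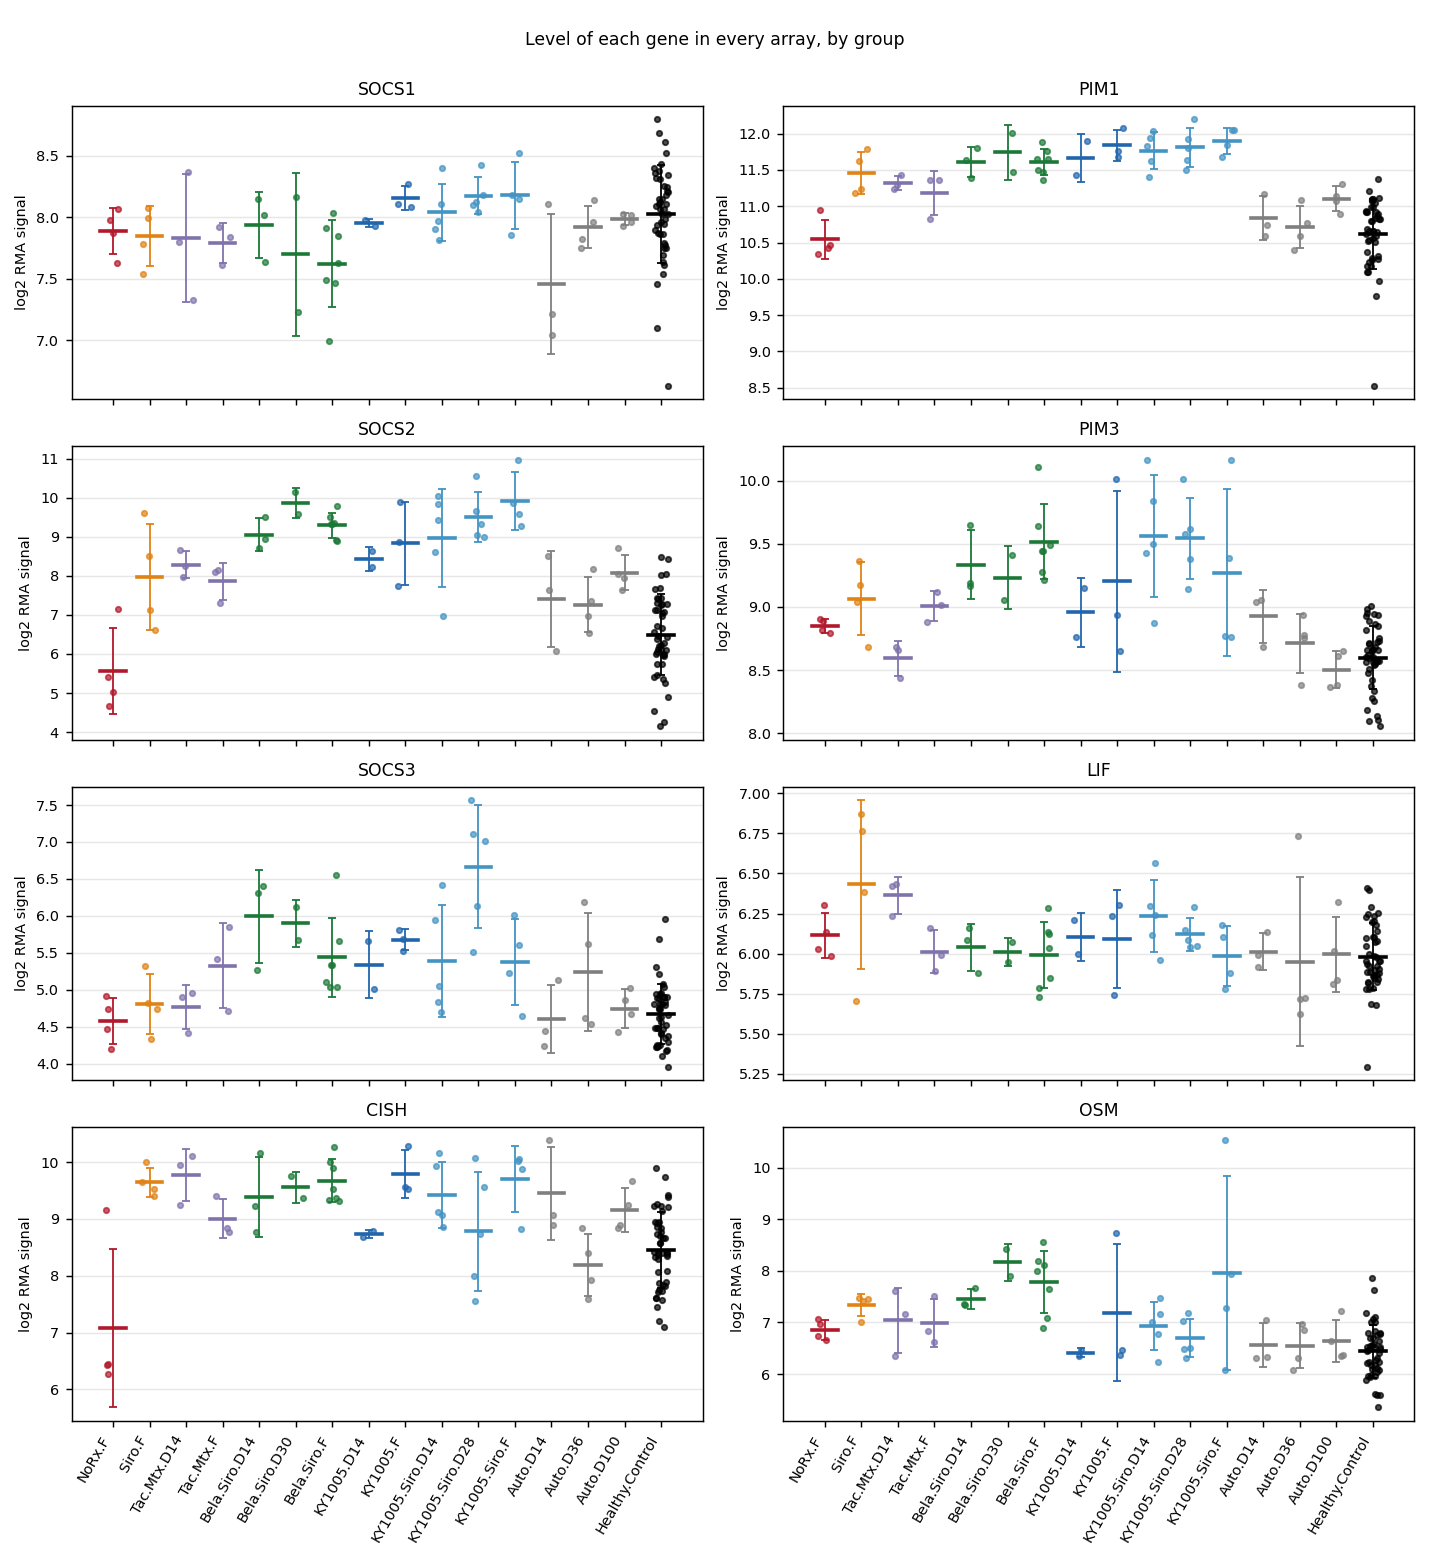
Level of each of the 8 genes (log2 RMA signal, y axis) in every array, by group (x axis). Points are arrays, thick lines are group means and bars are SD. SOCS2 and PIM1 are high in the Bela.Siro and KY1005 groups, with Healthy.Control at the right, while LIF changes little. Panels are not comparable in level, because probe sets differ in brightness.

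CISH, the founding member of the SOCS family, inhibits STAT5 and T cell receptor signals. It rose in Siro.F and Bela.Siro.F and fell in NoRx.F. In Siro.F it was 9.41 in R.13, 10.002 in R.18, 9.52 in R.17 and 9.64 in R.16, against a lowest, median and highest of 7.09, 8.41 and 9.89 in Healthy.Control. All 4 arrays lay above the healthy median and 1 above the healthy range (difference 1.22 ± 0.37, adjusted p = 0.0247). Leaving out R.18, R.17 or R.16 took the adjusted p to between 0.0658 and 0.116. In Bela.Siro.F the lowest, median and highest were 9.32, 9.52 and 10.27, all above the healthy median (difference 1.23 ± 0.31, adjusted p = 0.00471).

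In NoRx.F, CISH separated the 4 animals. It was 6.42 in R.50, 6.28 in R.51 and 6.44 in R.52, below all 45 healthy animals, and 9.16 in R.53, above their median. The group fell by 1.21 ± 0.39 (adjusted p = 0.0137), the call was lost without R.50, R.51 or R.52, and the difference was -1.16 (adjusted p = 0.0595) within the batches that hold the group. R.53 was sampled on day 12 and was in batch 2, and the other 3 were sampled on days 6 to 8 and were in batch 1, so day, batch and animal cannot be told apart. The second CISH probe set, which correlated with the first at r = 0.861 over 101 arrays, did not show the fall: it was 8.38 in R.53 and 7.61, 7.85 and 7.85 in R.50, R.51 and R.52, against a healthy median of 7.95 (difference -0.03 ± 0.22, adjusted p = 0.949). With the mean of both probe sets the difference was -0.62 (adjusted p = 0.0981). The second probe set rose in Tac.Mtx.D14 by 1.14 ± 0.24 (adjusted p = 0.00404), where the first stood 1.33 ± 0.43 above healthy without passing (adjusted p = 0.114), and it rose in Bela.Siro.F by 0.86 ± 0.18 (adjusted p = 0.000353).

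In the KY1005 groups, CISH stood 1.39 ± 0.46 above healthy in KY1005.F, 1.02 ± 0.39 in KY1005.Siro.D14, 0.37 ± 0.39 in KY1005.Siro.D28 and 1.29 ± 0.42 in KY1005.Siro.F. KY1005.Siro.D28 was the most spread, with 7.99 in R.217, 10.07 in R.218, 9.56 in R.219, 8.74 in R.220 and 7.55 in R.221. R.217 and R.221 lay below the healthy median of 8.41 at day 28 and above the healthy range at the last sample, at 10.03 and 10.05. In KY1005.D14 the difference was 0.33 ± 0.53 (adjusted p = 0.851).

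SOCS3 inhibits gp130 receptors and is induced through STAT3. Its signal was low in Healthy.Control, with 42 of 45 arrays under 5.21, so the size of its differences is uncertain. In Bela.Siro.D14 it was 6.31 in R.38, 6.40 in R.42 and 5.27 in R.49, against 3.96, 4.66 and 5.95 as lowest, median and highest in Healthy.Control. R.38 and R.42 lay above the healthy range, and SOCS3 rose by 1.55 ± 0.30 (adjusted p = 0.00107; 1.35 without R.42, adjusted p = 0.0778). In Bela.Siro.D30 it was 5.67 in R.38 and 6.12 in R.42 (rise of 1.45 ± 0.36, adjusted p = 0.0198, and 1.22 without a batch term, adjusted p = 0.0504). That call was also lost without either array. In Bela.Siro.F its lowest, median and highest were 5.04, 5.33 and 6.55, all above the healthy median, and it rose by 0.99 ± 0.22 (adjusted p = 0.00127). In Tac.Mtx.F it was 5.85 in R.21, 5.42 in R.20 and 4.71 in R.19, a rise of 0.88 ± 0.30 (adjusted p = 0.0391) that was 0.65 (adjusted p = 0.111) without a batch term and 0.62 (adjusted p = 0.342) without R.21, and that was lost without R.20 (adjusted p = 0.166). SOCS3 did not pass in Siro.F (0.10 ± 0.27) or NoRx.F (-0.12 ± 0.28), with adjusted p of 0.888 and 0.804.

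Among KY1005 recipients SOCS3 was highest in KY1005.Siro.D28, at 7.57 in R.217, 7.11 in R.218, 7.02 in R.219, 5.50 in R.220 and 6.13 in R.221. Of these 5 arrays 4 lay above the healthy range. The differences from healthy were 1.02 ± 0.33 in KY1005.F, 0.73 ± 0.28 in KY1005.Siro.D14, 2.01 ± 0.28 in KY1005.Siro.D28 and 0.71 ± 0.30 in KY1005.Siro.F.

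SOCS1 is the main brake on interferon and gamma chain receptors, and its 5 probe sets did not behave alike. The probe set with the highest mean, MmugDNA.20249.1.S1_at, correlated at r = 0.727 with MmugDNA.42159.1.S1_at over 101 arrays. The other 3 (MmugDNA.24297.1.S1_s_at, MmugDNA.24297.1.S1_at and MmugDNA.31600.1.S1_at) correlated with each other at r of 0.817 to 0.857, and with the first 2 at r of -0.07 to 0.12. These correlations are descriptions over arrays that share groups and batches. Which transcript ends the probe sets match was not analysed here.

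In Bela.Siro.F, 3 of the SOCS1 probe sets rose and 1 fell. In Bela.Siro.F MmugDNA.24297.1.S1_s_at had a lowest, median and highest of 8.19, 8.60 and 9.39, against 6.20, 7.37 and 8.51 in Healthy.Control, and 6 of 7 arrays lay above the healthy range. It rose by 1.51 ± 0.25 (adjusted p = 5.8e-06), and MmugDNA.24297.1.S1_at and MmugDNA.31600.1.S1_at rose by 0.66 ± 0.12 and 0.74 ± 0.18 (adjusted p of 2.49e-05 and 0.00293). In the same arrays MmugDNA.42159.1.S1_at had a lowest, median and highest of 6.05, 6.92 and 7.33, against 5.99, 7.28 and 7.82 in Healthy.Control, and fell by 0.47 ± 0.15 (adjusted p = 0.0321). MmugDNA.20249.1.S1_at was 0.45 ± 0.16 below healthy (adjusted p = 0.0659). MmugDNA.24297.1.S1_s_at also rose by 1.45 ± 0.34 in Bela.Siro.D14 (adjusted p = 0.00822) and by 2.01 ± 0.40 in Bela.Siro.D30 (adjusted p = 0.00123). In Bela.Siro.D14 and Bela.Siro.D30 MmugDNA.42159.1.S1_at differed by -0.18 ± 0.21 and -0.83 ± 0.25 (adjusted p of 0.635 and 0.0733), and MmugDNA.20249.1.S1_at by -0.14 ± 0.22 and -0.38 ± 0.27 (adjusted p of 0.748 and 0.602). The direction given for SOCS1 in Bela.Siro.F thus depends on the probe set.

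MmugDNA.20249.1.S1_at passed in 1 group only of the 11, Auto.D14, where it was 7.04 in R.201, 7.22 in R.202 and 8.11 in R.200, against 6.63, 8.07 and 8.80 as lowest, median and highest in Healthy.Control. It fell by 0.69 ± 0.26 (adjusted p = 0.0478). The actin ratio was 3.30 in R.201, 3.38 in R.202 and 0.439 in R.200. Without the 6 arrays over 2.5 the difference was -0.04 (adjusted p = 0.986), and with the actin ratio as a covariate it was -0.17 (adjusted p = 0.733). The call was also lost without R.201 or R.202. In KY1005.F and the 3 KY1005.Siro groups MmugDNA.20249.1.S1_at lay 0.18 to 0.32 above healthy and MmugDNA.24297.1.S1_s_at 1.10 to 1.59 above, as a description. Without adjustment for batch, the means of MmugDNA.20249.1.S1_at lay 0.01 to 0.15 above. Among the 7 healthy arrays of batch 6, which holds these groups, it correlated with the actin ratio at -0.937. The part of that ratio here was not tested. In KY1005.D14 MmugDNA.24297.1.S1_s_at differed by 0.76 ± 0.42 (adjusted p = 0.464).

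**Figure D3:**
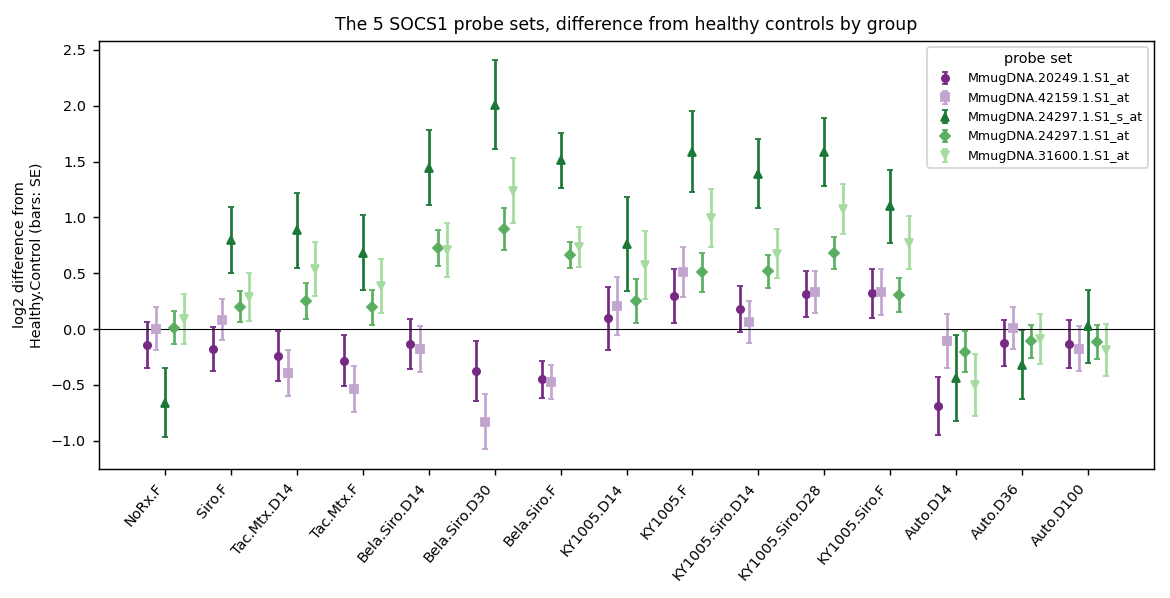
Difference in log2 signal from Healthy.Control (y axis) for the 5 SOCS1 probe sets in 15 groups (x axis), with SE as bars. In the Bela.Siro groups the 3 green probe sets lie above 0 and the 2 purple ones below it. In the KY1005 groups all 5 lie above 0.

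PIM1, a serine and threonine kinase that supports survival and growth of stimulated lymphocytes, passed in more groups than the other 7 genes, 5 of 11. In Bela.Siro.F its lowest, median and highest were 11.36, 11.64 and 11.88, against 8.53, 10.66 and 11.38 in Healthy.Control. Of the 7 arrays 6 lay above the healthy range, and it rose by 1.04 ± 0.18 (adjusted p = 1.38e-05). In Bela.Siro.D14 it was 11.39, 11.63 and 11.81 in R.38, R.42 and R.49, all above the healthy range (rise of 1.04 ± 0.24, adjusted p = 0.00814). In Bela.Siro.D30 it was 11.47 in R.38 and 12.01 in R.42, again above that range (rise of 1.17 ± 0.29, adjusted p = 0.0165). The first call was lost without R.42 or R.49 (adjusted p of 0.0947 and 0.063), and the second without R.42 (adjusted p = 0.544).

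In Siro.F PIM1 was 11.79 in R.13, 11.18 in R.18, 11.62 in R.17 and 11.24 in R.16, all above the healthy median, and it rose by 0.81 ± 0.21 (adjusted p = 0.00702; 0.71 without R.13, adjusted p = 0.067). In KY1005.D14 it was 11.43 in R.210 and 11.90 in R.212, both above the healthy range, and it rose by 1.29 ± 0.30 (adjusted p = 0.0391). That call rested on 2 arrays and was lost without either of them. It was also lost without the arrays of high actin ratio, where the difference was 0.80 (adjusted p = 0.23). PIM1 did not pass in NoRx.F (-0.07 ± 0.22, adjusted p = 0.866), and in the Auto groups its differences were -0.17 to 0.17.

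Every array of KY1005.F (11.68, 11.76 and 12.08) and of KY1005.Siro.D14 (11.62, 11.84, 11.94, 12.04 and 11.41) lay above the highest healthy PIM1 value of 11.38. The same held for KY1005.Siro.D28 (11.63, 12.20, 11.93, 11.80 and 11.50) and KY1005.Siro.F (11.84, 12.05, 11.68 and 12.05). The differences were 1.47 ± 0.26, 1.40 ± 0.22, 1.44 ± 0.22 and 1.53 ± 0.24. Without the arrays of high actin ratio they were 0.98, 0.90, 0.95 and 1.04.

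PIM3, a kinase of the same family, rose in Bela.Siro.F and Bela.Siro.D14. In Bela.Siro.F its lowest, median and highest were 9.21, 9.44 and 10.11, all above the healthy range of 8.06 to 9.01 (healthy median 8.60), and it rose by 0.90 ± 0.14 (adjusted p = 3.35e-06). In Bela.Siro.D14 it was 9.17, 9.65 and 9.19, also above that range, and it rose by 0.72 ± 0.20 (adjusted p = 0.0279). With the myeloid score as a covariate this was 0.52 (adjusted p = 0.206), and without R.42 it was 0.56 (adjusted p = 0.3). It was lost without R.49 too (adjusted p = 0.0546). In Siro.F the difference was 0.47 ± 0.17 (adjusted p = 0.0725). In KY1005 recipients PIM3 stood 0.73 ± 0.21 above healthy in KY1005.F, 1.09 ± 0.18 in KY1005.Siro.D14, 1.07 ± 0.18 in KY1005.Siro.D28 and 0.80 ± 0.19 in KY1005.Siro.F.

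OSM is a cytokine made by activated T cells and by myeloid cells. In Bela.Siro.F its lowest, median and highest were 6.90, 7.99 and 8.56, against 5.36, 6.47 and 7.86 in Healthy.Control. All 7 lay above the healthy median and 4 above the healthy range, and OSM rose by 1.60 ± 0.29 (adjusted p = 4.59e-05). In Bela.Siro.D30 it was 8.42 in R.38 and 7.91 in R.42, both above the healthy range (rise of 1.98 ± 0.47, adjusted p = 0.0113, lost without either array). In Bela.Siro.D14 it was 7.33, 7.37 and 7.68 (difference 1.27 ± 0.39, adjusted p = 0.0572). The second OSM probe set, which correlated with the first at r = 0.758, passed in 0 of 11 groups by limma (3 at an unadjusted p under 0.05), with differences of 0.54 ± 0.19 in Bela.Siro.F (adjusted p = 0.064) and 0.93 ± 0.32 in Bela.Siro.D30 (adjusted p = 0.136).

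OSM and myeloid markers were high together in some groups, but not in all arrays. In Bela.Siro.F S100A8, a protein of monocytes and neutrophils, rose by 4.59 ± 0.77 (adjusted p = 1.11e-05), and the lowest myeloid score in the group was 7.02. With that score as a covariate the OSM difference in Bela.Siro.F was 1.06 (adjusted p = 0.0122), against 1.60 without it, and under the other settings tried it ran from 1.07 to 1.64. In KY1005.Siro.F OSM was 6.07 in R.217, 10.53 in R.219, 7.94 in R.220 and 7.28 in R.221, and the myeloid scores of these arrays were 5.48, 11.4, 9.44 and 9.50. R.219 was highest for both and R.217 lowest for both. Other arrays differed: in Bela.Siro.D30 OSM was 8.42 in R.38 and 7.91 in R.42, with scores of 6.09 and 8.61. R.62 of Auto.D36 had a score of 10.1 with OSM at 6.85. The KY1005.Siro.F difference was 1.35 ± 0.38, and it was 0.60 with the score as a covariate and 0.49 without R.219. The part of myeloid cells in the OSM values was not tested further.

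LIF, a cytokine of the same family, varied least: its 16 group means spanned 0.48. It rose in Siro.F alone of the 11 groups, where it was 6.38 in R.13, 6.87 in R.18, 5.70 in R.17 and 6.76 in R.16, against 5.29, 5.95 and 6.41 as lowest, median and highest in Healthy.Control. R.18 and R.16 lay above the healthy range and R.17 below the healthy median. The rise was 0.47 ± 0.13 (adjusted p = 0.0152), and it was 0.33 without R.18 (adjusted p = 0.243) or without R.16 (adjusted p = 0.17).

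Ordered by mean, Healthy.Control ranked the fifth highest of 16 for SOCS1 by MmugDNA.20249.1.S1_at and 14th or 15th for the other 7 genes. By MmugDNA.24297.1.S1_s_at the SOCS1 mean was 7.39 in Healthy.Control, 9.20 in Bela.Siro.D30 and 8.33 in KY1005.Siro.F, so the order for SOCS1 depends on the probe set. With MmugDNA.20249.1.S1_at for SOCS1, KY1005.Siro.F had the highest mean of SOCS1, SOCS2 and PIM1, at 8.18, 9.93 and 11.91. KY1005.F had the highest of CISH, at 9.80, KY1005.Siro.D28 of SOCS3, at 6.67, KY1005.Siro.D14 of PIM3, at 9.56, Bela.Siro.D30 of OSM, at 8.17, and Siro.F of LIF, at 6.43. For each gene, 0 of the 15 gaps between neighbouring means exceeded the larger of both SDs, so the order between neighbours is not resolved.

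Between regimens, only sirolimus alone against no prophylaxis had genes that passed in the fit over all arrays. Siro.F was sampled on days 12 to 24 and NoRx.F on days 6 to 12, with R.53 alone of NoRx.F on day 12. Regimen and day after transplantation therefore cannot be told apart here. Siro.F minus NoRx.F passed for 3 of the 8 genes, all higher, where 3.07% of all probe sets were higher and 6.45% in either direction. CISH was 9.41 to 10.002 in the 4 Siro.F arrays, against 6.28, 6.42, 6.44 and 9.16 in NoRx.F, with no overlap (difference 2.44 ± 0.48, adjusted p = 0.00034). SOCS2 was 6.63, 7.11, 8.51 and 9.60 in Siro.F, against 4.66, 5.03, 5.41 and 7.16 in NoRx.F, and R.53 of NoRx.F overlapped with the Siro.F arrays (difference 2.34 ± 0.66, adjusted p = 0.0179). PIM1 was 11.18 to 11.79 in Siro.F, against 10.35 to 10.94 in NoRx.F, with no overlap (difference 0.88 ± 0.27, adjusted p = 0.0319). The call of SOCS2 was lost without R.17 of Siro.F (1.65, adjusted p = 0.199) or R.52 of NoRx.F (2.06, adjusted p = 0.0807), and that of PIM1 without any of 6 of the 8 arrays (adjusted p of 0.0578 to 0.124). Fitted on these 8 arrays alone, which lie in the same 2 batches, the differences were 2.25, 2.21 and 0.85 and none passed (adjusted p of 0.101, 0.204 and 0.143). NoRx.F and Healthy.Control arrays also belong to comparisons that were known when the genes were chosen. Siro.F arrays belong to a comparison with KY1005.F, which was left untested because its values may have chosen the genes, SOCS2 among them.

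MmugDNA.24297.1.S1_s_at of SOCS1 rose with them, by 1.46 ± 0.38 in Siro.F minus NoRx.F (adjusted p = 0.00792), being 7.96 to 8.43 in Siro.F, against 6.16 to 7.34 in NoRx.F. In the second CISH probe set the Siro.F arrays lay between 8.29 and 8.86, against 7.61 to 8.38 in NoRx.F, so that R.53 overlapped, and it did not pass (0.64 ± 0.27, adjusted p = 0.153). In the remaining 3 comparisons of regimens 0 of 8 genes passed by limma (3, 2 and 2 at an unadjusted p under 0.05). The highest differences there were SOCS2 at 1.58 ± 0.68 for Bela.Siro.F minus Siro.F (adjusted p = 0.326, 0.747% of all probe sets called), SOCS3 at 1.23 ± 0.39 for Bela.Siro.D14 minus Tac.Mtx.D14 (adjusted p = 0.143, 0% called) and SOCS2 at 1.44 ± 0.64 for Bela.Siro.F minus Tac.Mtx.F (adjusted p = 0.188, 2.13% called). Fitted on the groups compared alone, which lie in 1 batch, that last difference was 1.44 and passed (adjusted p = 0.0328).

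With the SOCS2 and SOCS3 values of the KY1005.Siro groups set aside, since such values chose the genes, 0 of 44 changes with time within a regimen passed by limma (3 at an unadjusted p under 0.05). As a description, SOCS3 was 4.64 in R.217, 5.23 in R.219, 6.02 in R.220 and 5.61 in R.221 in KY1005.Siro.F, against 7.57, 7.02, 5.50 and 6.13 in KY1005.Siro.D28. It was lower at the last sample in 3 of these 4 animals and higher in R.220. The difference was -1.29 ± 0.32 in the fit and -1.18 with the animal as a fixed block, and 1.84% of probe sets were called (0.205% lower) in the fit and 0% with the block. At day 28, SOCS3 was higher than at day 14 in 4 of 5 animals, by 1.28 ± 0.30 in the fit (0.00946% of probe sets called).

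In the same animals CISH was higher at the last sample than at day 28 in 4 of 4, by 0.09 to 2.5, but did not pass (0.92 ± 0.45, adjusted p = 0.451). At day 28 it was lower than at day 14 in 4 of 5 (-0.64 ± 0.42, adjusted p = 0.637). OSM was higher at the last sample than at day 28 in 3 of 4 animals (1.25 ± 0.41, adjusted p = 0.106).

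**Figure D4:**
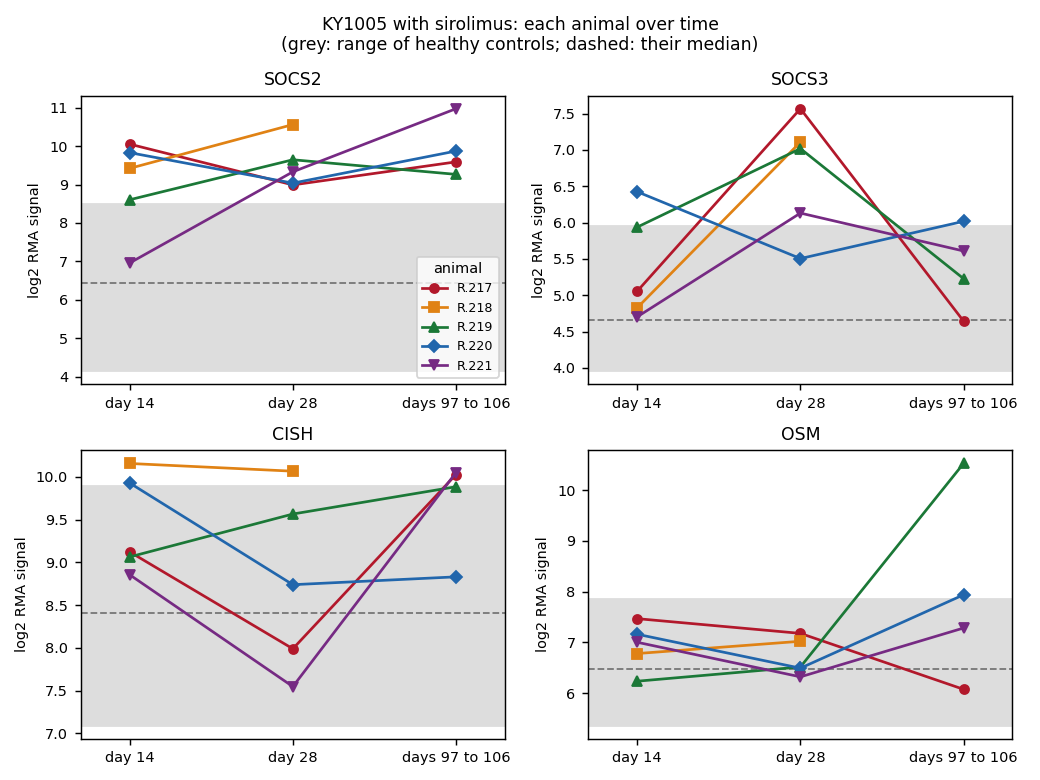
Levels of SOCS2, SOCS3, CISH and OSM (log2 RMA signal, y axis) in each of 5 animals given KY1005 with sirolimus, at day 14, day 28 and days 97 to 106 (x axis). The grey band is the range of Healthy.Control and the dashed line its median. SOCS2 stays above the band from day 28, SOCS3 is higher at day 28 than at day 14 in 4 of 5 animals, and OSM of R.219 reaches 10.53.

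In recipients of their own cells SOCS2 was 7.94 in R.200, 8.71 in R.201 and 8.04 in R.202 at day 100, against 6.96, 7.36 and 6.53 in Auto.D36, and was higher at day 100 in all 3. CISH was 8.83, 9.67 and 8.89 at day 100, against 7.93, 8.40 and 7.59, again higher in all 3. In the fit over all arrays neither passed (0.20 ± 0.77, adjusted p = 0.996, and 0.90 ± 0.56, adjusted p = 0.992), and 0% of probe sets did (1492 had an unadjusted p under 0.05). With the animal as a fixed block and no batch term, SOCS2 was higher by 1.28 and CISH by 1.16, both with an adjusted p of 0.034, where 1.06% of probe sets were called higher and 1.78% in either direction. In these 3 animals the day 100 arrays were all in batch 5 and the earlier arrays in batch 4, so batch and time cannot be told apart in that fit.

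The other time comparisons had 0 of 8 genes called by limma (1 at an unadjusted p under 0.05 in Auto.D36 minus Auto.D14, 0 in Bela.Siro.F minus Bela.Siro.D14 and 0 in Tac.Mtx.F minus Tac.Mtx.D14). For Auto.D36 minus Auto.D14, where 7.06% of probe sets were called, CISH was lower in 3 of 3 animals (-1.24 ± 0.62, adjusted p = 0.223) and SOCS1 higher in 3 of 3 (0.57 ± 0.33, adjusted p = 0.298), and 2 of the day 14 arrays had a high actin ratio. With array weights SOCS1, SOCS3 and CISH passed there (0.82, 1.28 and -1.74, adjusted p of 0.0149, 0.0345 and 0.0299). In the 3 animals sampled at both times, the day 14 arrays were all in batch 5 and the Auto.D36 arrays all in batch 4. Batch and time therefore cannot be told apart in those changes within animals. Bela.Siro.F and Bela.Siro.D14 differed by 0.24 ± 0.64 for SOCS2 and 0.00 ± 0.26 for PIM1 (0.00315% of probe sets called). For Tac.Mtx.F minus Tac.Mtx.D14 (0.00631% called) SOCS3 was higher in 3 of 3 animals (0.56 ± 0.39) and CISH lower in 3 of 3 (-0.76 ± 0.54), with adjusted p of 0.927 for both.

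A healthy array of their own existed for 11 animals with 18 arrays after transplantation. SOCS2 was higher after transplantation in 15 of 18 arrays (median difference 0.98, range -1.86 to 2.75), CISH in 13 of 18 (median 0.62) and PIM3 in 15 of 18 (median 0.15). PIM1 was higher in 13 of 18 (median 0.18) and LIF in 13 of 18 (median 0.20). SOCS3 was higher in 11 of 18 (median 0.03) and OSM in 9 of 18 (median 0.05). SOCS1 by MmugDNA.20249.1.S1_at was higher in 6 of 18 (median -0.09), and its other probe sets were not compared in this way. The largest rise of SOCS2 was in R.49 in Bela.Siro.F, at 8.88 against 6.13 when healthy, and the largest drop in R.16 in Siro.F, at 6.63 against 8.49. R.53 of NoRx.F was at 7.16, against 5.42 when healthy. These arrays repeat animals and cross batches, and no test was made on them.

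In Healthy.Control, levels of several genes varied together across the 45 animals. Of 44 relations computed, 12 passed after Benjamini-Hochberg adjustment of Pearson's permutation p. SOCS2 correlated with PIM1 at r = 0.669 (rho = 0.71) and with CISH at r = 0.61 (rho = 0.697), each with a permutation p of 1e-05, the smallest that 100000 permutations can give, and an adjusted p of 0.00022. Without the 2 animals farthest from the median of SOCS2 these r were 0.631 and 0.728. Within batches 2, 3, 4 and 6, SOCS2 and PIM1 correlated at 0.589, 0.763, 0.75 and 0.816, and SOCS2 and CISH at 0.608, 0.835, 0.875 and -0.07, so that the relation of SOCS2 and CISH did not hold among the 7 animals of batch 6. In batch 6 R.207 and R.208 had actin ratios of 3.30 and 3.95, and the ratio correlated there at -0.607 with SOCS2 and 0.718 with CISH. Its part in that exception was not tested. The other batches held fewer than 6 healthy arrays.

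CISH and OSM correlated at r = 0.554 (rho = 0.499, permutation p of 8e-05 and 0.00058, adjusted 0.00117 and 0.0051), and at 0.514 to 0.728 within the 4 batches. SOCS3 and PIM1 correlated at r = 0.545 (rho = 0.53, permutation p of 0.00028 and 0.00023, adjusted 0.00246 and 0.00253), and at 0.266 to 0.728 within batches. OSM correlated with the myeloid score at r = 0.463 (rho = 0.439, permutation p of 0.00157 and 0.003, adjusted 0.00987 and 0.0165), at 0.113 to 0.821 within batches. SOCS1 by MmugDNA.20249.1.S1_at and the actin ratio correlated at r = -0.58 (rho = -0.47, permutation p of 0.00014 and 0.00118, adjusted 0.00154 and 0.00865), at -0.94 to 0.13 within batches, and PIM1 and that ratio at r = -0.539 (rho = -0.333, permutation p of 0.00077 and 0.0269, adjusted 0.00565 and 0.091), or -0.292 without the 2 farthest animals. The ratio also correlated with SOCS2 at r = -0.433 (rho = -0.318, permutation p of 0.00305 and 0.034, adjusted 0.0168 and 0.107) and with SOCS3 at r = -0.375 (rho = -0.447, permutation p of 0.0128 and 0.00218, adjusted 0.0468 and 0.0137), or -0.167 and -0.302 without the 2 farthest animals. Within batches these r were -0.91 to -0.04 for SOCS2, -0.57 to 0.19 for SOCS3 and -0.94 to 0.09 for PIM1. The relations of SOCS2, SOCS3 and PIM1 with each other thus lie among genes that were each lower where the actin ratio was higher, and its part in them was not tested. SOCS1 and PIM1, at r = 0.428, fell to 0.07 without the 2 farthest animals and so rested on those. SOCS2 and SOCS3 correlated at r = 0.41 (rho = 0.386, permutation p of 0.00544 and 0.00905, adjusted 0.0266 and 0.0442). SOCS1 by MmugDNA.20249.1.S1_at and OSM went in opposite directions, at r = -0.385 (rho = -0.373, permutation p of 0.0094 and 0.0117, adjusted 0.0376 and 0.0515). Without the 2 farthest animals these r were 0.357 and -0.255.

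**Figure D5:**
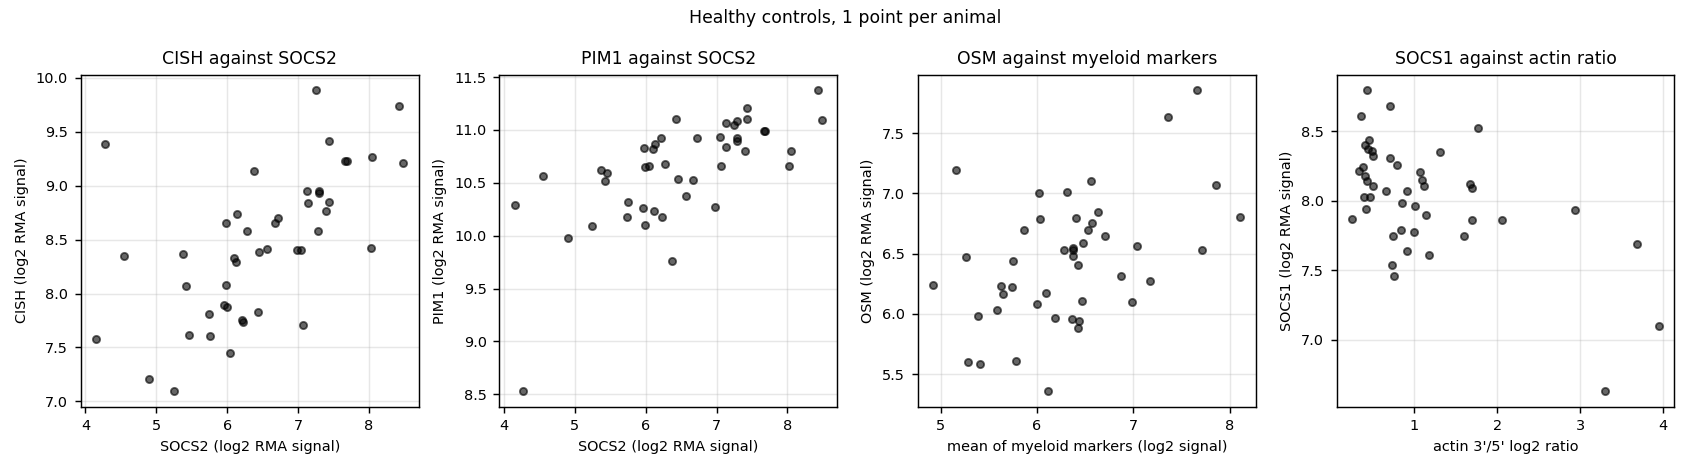
Healthy.Control animals, 1 point each: CISH and PIM1 against SOCS2, OSM against the mean of 9 myeloid markers, and SOCS1 against the actin 3′ to 5′ log2 ratio, all in log2 units. CISH and PIM1 are higher where SOCS2 is higher, and the 2 lowest SOCS1 values, 6.63 and 7.10, are of animals with an actin ratio over 2.5.

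Across the 16 group means, as a description, SOCS2 and PIM1 correlated at r = 0.927 and SOCS2 and CISH at r = 0.741, while LIF correlated with no other gene above 0.232. Other measured genes were then ranked by likeness of group means, without the 8 genes themselves and without names made of LOC and a number. Those most like SOCS2 were STOM (r = 0.936), NUMB (0.928) and AATK (0.926), and those most like PIM1 were AATK (0.91), PGAP1 (0.905) and BCL2 (0.902). Most like CISH were LPAR6 (0.857), COX7A2 (0.849) and AATK (0.84), and most like OSM was LILRB4 (0.892). For PIM3 it was MAFF (0.858), for SOCS3 H3-3B (0.838), for SOCS1 GPATCH8 (0.947) and for LIF GRK3 (0.803). The 16 means share batches, animals and the small size of most groups.

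Other genes of the pathway were counted from lists, to be read against the share of all probe sets called: 13.5% higher and 14% lower in NoRx.F, 4.24% higher and 4.66% lower in Siro.F, 6.9% higher and 7.36% lower in Tac.Mtx.F, and 5.23% higher and 4.77% lower in Bela.Siro.F. Of 13 further STAT5 targets listed, 10 were measured. In Bela.Siro.F 1 rose and 0 fell: BCL2, which protects cells from death, rose by 0.84 ± 0.15 (adjusted p = 6.03e-05), and it rose by 0.83 ± 0.21 in Bela.Siro.D14 (adjusted p = 0.0167). In NoRx.F 3 of 10 rose and 1 fell, where 27.5% of all probe sets were called in either direction. IL2RA, the alpha chain of the interleukin 2 receptor, which is counted among the receptors too, rose there by 1.28 ± 0.21 (adjusted p = 1.13e-06), GZMB, a protease of killer cells, by 1.70 ± 0.36 (adjusted p = 0.000129), and CCND3, a cyclin, by 0.36 ± 0.12 (adjusted p = 0.0157), while MYC, a transcription factor of cell growth, fell by 1.41 ± 0.32 (adjusted p = 0.000297). In Siro.F 1 rose: IL2RA by 0.97 ± 0.20 (adjusted p = 0.000525). The list's median difference was 0.15 in Bela.Siro.F, 0.06 in NoRx.F and 0.15 in Siro.F, against 0.00, 0.01 and -0.01 for all probe sets.

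Of the JAK and STAT genes 8 of 11 were measured. JAK2 alone of these rose in Bela.Siro.F (0.65 ± 0.18, adjusted p = 0.0104), Siro.F (0.70 ± 0.22, adjusted p = 0.026) and Tac.Mtx.F (0.79 ± 0.25, adjusted p = 0.0197), and none fell. STAT6 fell in NoRx.F by 0.50 ± 0.14 (adjusted p = 0.0055). STAT3, the factor upstream of SOCS3, fell in Auto.D14 by 1.68 ± 0.54 (adjusted p = 0.0209) and rose in Auto.D36 by 1.44 ± 0.42 (adjusted p = 0.0204). Of all probe sets, 11% were lower in Auto.D14 and 5.13% higher in Auto.D36. The Auto.D14 fall of STAT3 includes the 2 arrays of high actin ratio and was not recomputed without them. SOCS5, the measured member of the 4 other SOCS genes, passed in 0 of the 11 groups by limma, with differences of -0.34 to 0.27.

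Of 10 measured cytokine receptors of 20, 1 rose and 2 fell in NoRx.F, which is near the 27.5% of all probe sets called there: IL2RA rose, IL6R, the interleukin 6 receptor, fell by 2.41 ± 0.29 (adjusted p = 2.1e-10), and IL4R fell by 0.95 ± 0.23 (adjusted p = 0.000909). IL6R was higher in Siro.F than in NoRx.F by 1.83 ± 0.35 (adjusted p = 0.000301). In Bela.Siro.F 1 receptor fell, IL10RA, by 0.71 ± 0.15 (adjusted p = 0.000446). Of 8 measured cytokines of 11, 2 rose in Siro.F (4.24% of all probe sets higher), IFNG by 1.56 ± 0.52 (adjusted p = 0.0444) and IL21 by 0.84 ± 0.19 (adjusted p = 0.002). In Tac.Mtx.F 2 rose (6.9% of all probe sets higher), IFNG by 1.98 ± 0.59 (adjusted p = 0.0163) and IL15 by 0.84 ± 0.27 (adjusted p = 0.0238). In NoRx.F IL10 rose by 1.08 ± 0.36 (adjusted p = 0.0159), and IL7 fell by 1.52 ± 0.46 (adjusted p = 0.00836) and IL2 by 0.46 ± 0.12 (adjusted p = 0.00168). IL7 rose in Auto.D100 by 1.89 ± 0.48 (adjusted p = 0.021), and the other 7 of the 11 groups had no cytokine called.

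Among other brakes of the pathway, 8 of 10 phosphatase, PIAS and adaptor genes were measured. PIAS1, which binds STAT factors, fell in NoRx.F by 1.10 ± 0.14 (adjusted p = 9.15e-10) and in Bela.Siro.D14 by 0.52 ± 0.15 (adjusted p = 0.0389), and was higher in Siro.F than in NoRx.F by 0.76 ± 0.17 (adjusted p = 0.00188). PTPN6, a phosphatase that removes phosphate from JAK kinases, rose in NoRx.F by 0.69 ± 0.17 (adjusted p = 0.00138), in Siro.F by 0.57 ± 0.17 (adjusted p = 0.0173) and in Auto.D14 by 0.65 ± 0.22 (adjusted p = 0.0277). SH2B3, an adaptor that restrains JAK signals, rose in Auto.D14 by 0.70 ± 0.20 (adjusted p = 0.00939). The Auto.D14 rises of PTPN6 and SH2B3 include the 2 arrays of high actin ratio and were not recomputed without them. Of 7 measured immediate early genes of 10, JUNB and MYC fell in NoRx.F (JUNB by 1.59 ± 0.35, adjusted p = 0.000178) and EGR2 rose in Siro.F by 2.18 ± 0.56 (adjusted p = 0.00607). FOS rose in Bela.Siro.F by 2.34 ± 0.78 (adjusted p = 0.0399) and in Tac.Mtx.F by 3.97 ± 1.06 (adjusted p = 0.00709).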

How the data were processed

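Deposited log2 values of 52865 probe sets in 102 arrays were used. They were made by the authors with RMA in affy, per the submitters' processing notes, versions not given in the sources used here. Tested for batch within healthy arrays, 0.255% of probe sets gave an F test p under 0.05 and 24.3% a p over 0.95, so an earlier batch adjustment is possible. Gene names came from the platform annotation. Both arrays of R.201 (r = 0.995) were averaged, control probe sets left out (99), and probe sets kept at 5.21, the median of all values, or more in at least 3 arrays, which left 31711. Limma 3.58.1 in R 4.3.3 with data.table version 1.17.8 fitted 16 groups with batch (80 residual and 3.38 prior degrees of freedom), with Benjamini-Hochberg adjustment at 0.05. Two-sided permutation tests and figures used scipy 1.17.1, numpy 2.4.6, pandas 2.3.3 and matplotlib 3.10.9. The fit was tested on simulated data.

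The members and lists were chosen with earlier results of these data known. Named genes were the 8 members, up to 4 genes a pathway list with the largest difference past the threshold in a comparison described, and for each member the genes of most like group means. Animals are the labels' IDs, so arrays of an animal pair groups: their residuals had a median correlation of 0.184 over 51 pairs. A random animal block (consensus correlation 0.11) and, for changes with time, a fixed block were tried, with other batch terms, filters, scalings, priors, weights, actin and myeloid covariates and left-out arrays. Separate samples of a group are different animals, and the number of arrays limits the precision. Promoter and protein sequences were not used here.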

Additional observations from a re-analysis of the deposited data

Results flagged for a closer look

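Among 64 gene and group combinations with 4 to 10 arrays 5 had an array far from the others by Dixon's test, and chance gives about 1 in 20. SOCS3 of R.42 was the highest of Bela.Siro.F, at 6.55. CISH of R.220 was the lowest of KY1005.Siro.F, at 8.83. CISH of R.53 was the highest of NoRx.F, at 9.16, and this animal was also the highest of its group for SOCS2 and PIM1. LIF of R.62 was the highest of Auto.D36, at 6.74. OSM of R.16 was the lowest of Siro.F, at 7.01.

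Siro.F and NoRx.F differed under limma's test for SOCS2 by 2.34, for CISH by 2.44 and for PIM1 by 0.88, which means that the differences of these groups from Healthy.Control were unlike. Their days of sampling differed as well as their regimens.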

How the results depend on the processing

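Of 41 single differences recomputed under the alternatives (713 values), 629 kept their direction and side of the threshold (or, with no test, moved less than the healthy SD), 76 lost the call, 8 moved further and 0 reversed. The 21 calls against Healthy.Control became 17 to 28 under the other settings and 17 to 22 with an array left out of a smaller group. No array was left out of Bela.Siro.F, which held 7, or of Healthy.Control. The 6 calls of Bela.Siro.F were kept under all 13 or 14 settings that gave a value. SOCS1 in Auto.D14 lost its call in 10 of 17 and PIM1 in KY1005.D14 in 7 of 16. Those settings include left-out arrays, so these counts cannot be compared with those of Bela.Siro.F. A random replicate block for the animal left the counts at 21, 1 and 3 and changed none of the 41. For changes with time, the count of 1 (SOCS3 in KY1005.Siro.F minus KY1005.Siro.D28, a description, since its values chose the genes) became 0 with the groups compared alone, 0 within the batches of the later group, 4 with array weights (SOCS3 as before and SOCS1, SOCS3 and CISH in Auto.D36 minus Auto.D14), 2 with the animal as a fixed replicate block, and 0 to 2 with an array left out (0 without R.217 at day 28 or R.219 at the last sample, 2 without R.220 at day 14 or day 28). Between regimens, the count of 3 became 1 with the groups compared alone and 1 within batches, in both not any of the 3 but SOCS2 in Bela.Siro.F minus Tac.Mtx.F (1.44, adjusted p = 0.0328), and 1 to 3 with an array left out (1 without R.52 of NoRx.F). Where a left-out array leaves 1 in a group, that array is assumed to vary like the other groups. The filter at 1 in 2 arrays drops SOCS3. Signals under 5.21 limit SOCS3 most.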
